A study of Mus musculus with 12 samples.

Results

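Natural killer cells and innate-like T cells carry activating receptors, many of which cannot signal alone. The ligand-binding chains of these have short cytoplasmic tails and pair in the membrane with small adaptors: FcRγ (gene Fcer1g) and DAP12 (Tyrobp), which carry an immunoreceptor tyrosine-based activation motif (ITAM) that recruits Syk and Zap70 kinases, and DAP10 (Hcst), which carries a YxxM motif that recruits PI3-kinase and Grb2. The 8 genes described here are these 3 adaptors and 5 receptors: Ncr1 (NKp46) and Fcgr3 (CD16), which use FcRγ, Fcrl6, an Fc receptor-like protein, and Cd226 (DNAM-1) and Crtam, which bind nectins and nectin-like proteins on other cells and use no ITAM adaptor. They were chosen by gene symbol, with earlier results of these data known, and each matched 1 row of the 14004 in the deposited table. All 8 passed the filter on low values (at least 10 in 3 or more libraries), Ncr1 through liver libraries alone. Fcrl6 passed it through its cKO libraries, as control thymus library 3 (23.9) was the only control library at 10 or more.

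The values come from RNA-seq of type 1 invariant natural killer T (iNKT1) cells of mice, T cells that recognise lipids on CD1d and depend on T-bet. The cells were taken from thymus and liver as YFP-positive cells stained by CD1d tetramer. Control cells carried Tbx21Cre and Rosa26-YFP+, and the conditional knockout (cKO) cells carried Ets1F/F besides. The Cre under the T-bet gene Tbx21 and the reporter are thus common to all 4 groups, which held 3 libraries each, and floxed Ets1 could be lost only in cells that had switched Tbx21 on. The labels used here state neither age nor sex. The design text calls the replicates independent without saying that they came from separate mice, so p-values measure the spread between these libraries, which may be technical.

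Depth and identity bear on every value below. Values are the authors' adjusted signal, and the reads behind them were recovered from its steps: 18.5 to 43.4 M in 10 libraries (M, mega), but 3.87 M in control liver library 3 and 3.21 M in cKO liver library 2, called the shallow libraries below. Ets1 was lower in cKO cells of both tissues (log2 fold change -1.78 ± 0.19 over both, limma adjusted p = 3.9e-05), with no overlap of libraries in either tissue. All 9 T cell and iNKT markers of the list checked, among them Cd3e, Zbtb16 and Tbx21, had reads in every library, the fewest being 203. As deposited, the median tested gene was 0.24 higher on the log2 scale in cKO than in control thymus, and 0.28 higher in control liver than in control thymus. TMM rescaling (edgeR's trimmed mean) set these medians to -0.03 and -0.0046, and turned the split of called genes from 41 higher and 42 lower in cKO thymus to 27 and 90, and from 44 higher and 35 lower in control liver to 37 and 73. Over both tissues it turned the split from 154 higher and 143 lower in cKO cells to 124 and 213. Fold changes below are limma estimates of log2(value + 1) ± SE in 1 model of all 4 groups. A gene is said to rise or fall where its Benjamini-Hochberg adjusted p over all 13058 tested genes was under 0.05.

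The signalling motifs set Hcst apart from the other 2 adaptors. They decide which enzymes an adaptor recruits, and are shown as the coding sequence around them. Each stretch was read from the GENCODE M21 transcript, with the tyrosine codons and the leucine or methionine codons of the motif in capitals.
Fcer1g, codons 65 to 79 of 86: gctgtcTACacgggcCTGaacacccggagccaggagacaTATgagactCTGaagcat
Tyrobp, codons 92 to 106 of 114: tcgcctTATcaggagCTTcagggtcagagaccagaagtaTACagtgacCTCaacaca
Hcst, codons 72 to 75 of 79: agagtcTACatcaacATGcctggc
In Fcer1g and Tyrobp the 2 parts of the ITAM lay 7 codons apart, and Hcst had a single tyrosine followed by 2 codons and a methionine. The codon positions are those of the motif, and each printed stretch runs 2 codons beyond it on both sides.

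The adaptor Fcer1g was the gene of the 8 that fell. Fcer1g (ENSMUSG00000058715; chromosome 1, 171229572 to 171234365, minus strand, GRCm38) stood at 6967, 3191 and 4117 in control thymus libraries 1 to 3. In cKO thymus it stood at 263, 532 and 436. In the liver the values were 1960.0, 519 and 189 in control cells, and 136, 181 and 40.4 in cKO cells. The genotypes did not overlap in either tissue, although the lowest control liver library, at 31 reads, lay close to the highest cKO liver library, at 27 reads, and both are the shallow libraries. The thymus means were thus 4759 ± 1968 (SD, n = 3) for control and 410.2 ± 136 for cKO cells, and those of the liver 889 ± 942 and 119 ± 71.9. In bulk samples such as these, fewer cells that express a gene and less RNA per cell cannot be told apart.

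The fall of Fcer1g over both tissues was -3.02 ± 0.59 on the log2 scale (limma adjusted p = 0.0085). Neither tissue passed the threshold by itself: the thymus contrast gave -3.51 ± 0.83 (limma adjusted p = 0.062) and the liver contrast -2.52 ± 0.83 (limma adjusted p = 0.29). The difference of these effects, liver minus thymus, was 0.997 ± 1.18 (limma adjusted p = 0.95), and its sign turned to -0.23 without the 2 shallow libraries. The thymus value passed after TMM rescaling (-3.81, adjusted p = 0.031), after median-of-ratios rescaling (adjusted p = 0.047), with a pseudocount of 10 (adjusted p = 0.038) and without control thymus library 3 (adjusted p = 0.048). Its adjusted p over all alternatives ran from 5.3e-05, with DESeq2, to 0.49. The fall over both tissues was lost only when control thymus libraries 1 and 2 were left out together (limma adjusted p = 0.057, within 2.2e-08 to 0.057), which leaves 1 control thymus library, assumed to vary like the others. In liver the estimate depended on the highest library: without control liver library 1 the log2 fold change was -1.64 (limma adjusted p = 1).

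Fcer1g also stood lower in liver than in thymus within each genotype, with no overlap of libraries in either, but the differences did not pass the test. The log2 difference of liver against thymus was -2.96 ± 0.83 in control cells (limma adjusted p = 0.13) and -1.96 ± 0.83 in cKO cells (limma adjusted p = 0.57).

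**Figure D1:**
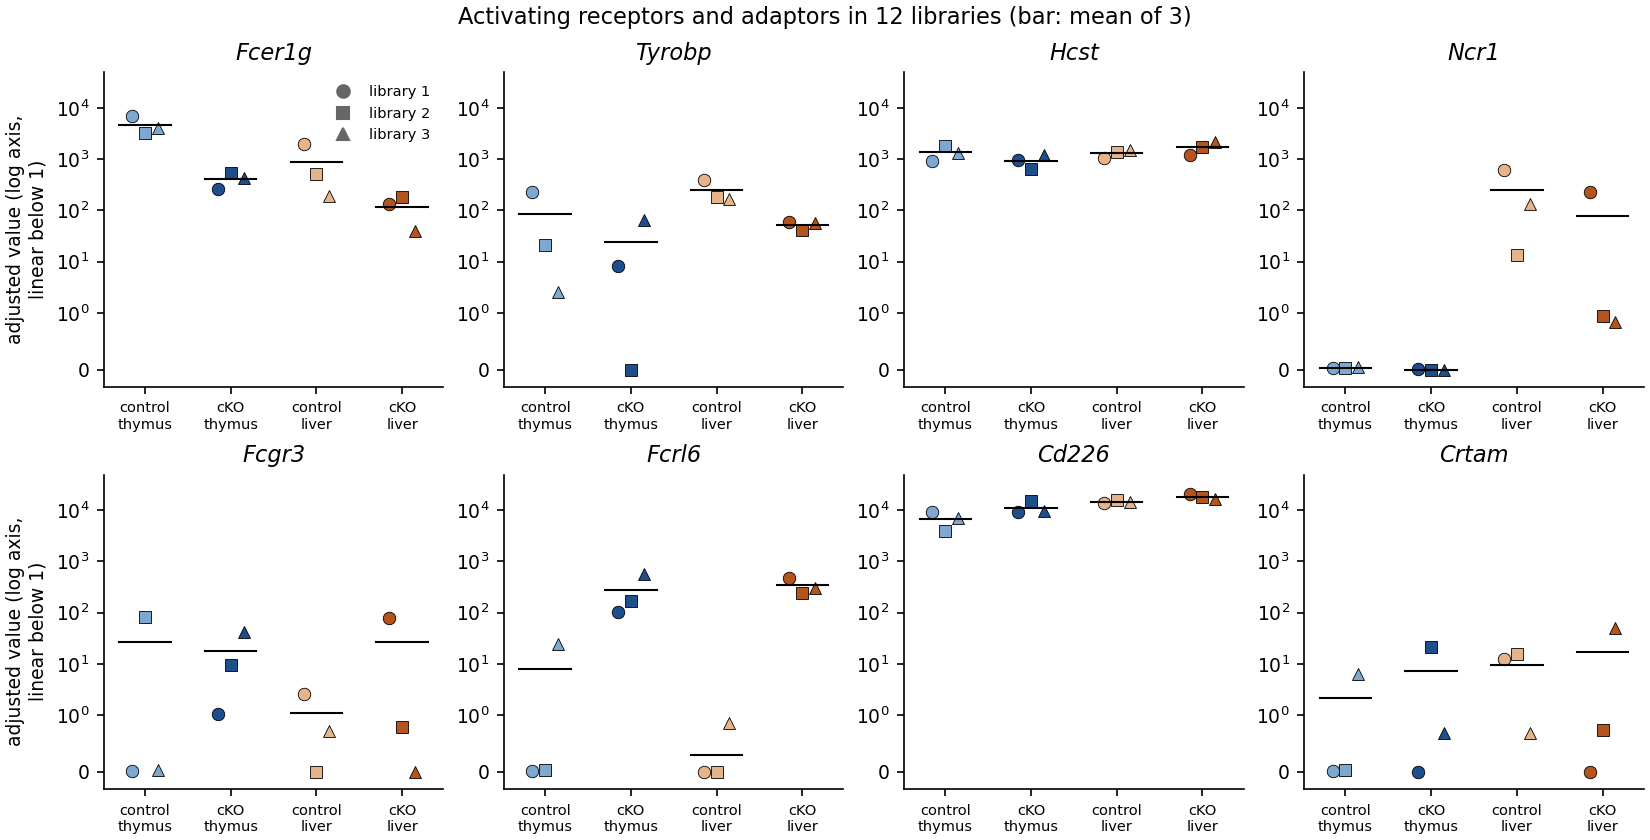
Adjusted values of the 8 genes in each of the 12 libraries, on a log axis that is linear below 1, with a marker shape per library number and a bar at the mean of 3. Fcer1g is lower and Fcrl6 higher in all cKO libraries of each tissue, Hcst lies between 657 and 2172 throughout, and Ncr1 has reads only in liver libraries.

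Tyrobp (ENSMUSG00000030579; chromosome 7, 30413760 to 30417585, plus strand), the DAP12 adaptor of Ly49D, Ly49H and CD94-NKG2C, was present at low and uneven levels. Control thymus libraries stood at 229.8, 20.9 and 2.56, the last resting on 2 reads, and cKO thymus libraries at 8.22, 0 and 64.8. Liver libraries stood at 397, 181 and 170.0 in control and at 58.9, 41.3 and 56.8 in cKO cells. The thymus groups overlapped and the liver groups did not. No contrast of the genotypes passed the test. The estimate was -1.63 ± 1.87 for thymus (limma adjusted p = 0.75), -2.13 ± 1.87 for liver (limma adjusted p = 1) and -1.88 ± 1.32 over both (limma adjusted p = 0.58). Without control thymus library 1 the thymus value was -0.06, and without libraries 1 and 2 it turned to 1.25 (limma adjusted p = 0.94). Between tissues, Tyrobp was higher in liver by 3.14 ± 1.87 in control cells (limma adjusted p = 0.5) and by 2.64 ± 1.87 in cKO cells (limma adjusted p = 0.85), and libraries overlapped in both.

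Hcst (ENSMUSG00000064109; chromosome 7, 30417712 to 30419854, minus strand), the DAP10 adaptor of NKG2D, ends 126 bases from the end of Tyrobp on the other strand. Control thymus libraries stood at 930.5, 1852 and 1351, and cKO thymus libraries at 971, 657 and 1203. Control liver libraries stood at 1046, 1385 and 1509, and cKO liver libraries at 1229, 1719 and 2172. The genotypes overlapped in both tissues, and the estimates were -0.53 ± 0.48 for thymus (limma adjusted p = 0.67) and 0.36 ± 0.48 for liver (limma adjusted p = 1), with a difference of 0.89 ± 0.68 (limma adjusted p = 0.94). Within cKO cells all 3 liver libraries lay above all 3 thymus libraries (0.86 ± 0.48, limma adjusted p = 0.75). These tests leave room for changes of the size of their errors, and do not show that Hcst was the same in the genotypes.

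Ncr1 (ENSMUSG00000062524; chromosome 7, 4337724 to 4345164, plus strand), the NKp46 receptor by which natural killer cells and some innate lymphoid cells are recognised, had reads in the liver alone. None of the 6 thymus libraries held a read. Control liver libraries stood at 616, 13.7 and 131, from 707, 16 and 22 reads. The cKO liver libraries stood at 233, 0.936 and 0.834, from 378, 0 and 1 reads, so that 1 library held nearly all of the reads of its group in each genotype. With the thymus set at the floor of 3 reads in each library, the mean of Ncr1 was at least 73.4-fold higher in control liver. This bound compares means of reads scaled to depth and covers counting error only. It does not hold for each library, as control liver library 1 carried most of the mean. Control liver library 2, at 13.7, lay much nearer the floor, which is worth 3.36 to 3.76 units in control thymus libraries. The fitted difference did not pass the test (6.69 ± 1.93 on the log2 scale, limma adjusted p = 0.14), nor did the genotype difference in liver (-3.50 ± 1.93, limma adjusted p = 0.83), where the groups overlapped.

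The 2 libraries with most Ncr1 reads also had the most reads of Eomes, a transcription factor of natural killer cells that marks them off from most iNKT1 cells. As adjusted values, Eomes stood at 395, 0 and 7.19 in control liver libraries 1 to 3 and at 110, 34.2 and 59.4 in cKO liver libraries 1 to 3. The 2 genes did not go together everywhere: control liver library 3, with Ncr1 at 131, held 1 Eomes read. In the thymus, cKO library 2 held 92 Eomes reads and 0 of Ncr1. Control liver library 1 was also the highest of its group in Fcer1g and Tyrobp, in the macrophage marker Cd68 (1346 reads, against 14 and 15) and in the B cell marker Ms4a1 (485 reads, against 0 and 1). The macrophage markers Lyz2, C1qb and Csf1r did not follow Cd68: they were highest of the group in control liver library 3, with 68, 20 and 6 reads. The part of other cells in these results was not tested.

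Fcgr3 (ENSMUSG00000059498; chromosome 1, 171051174 to 171064935, minus strand), the CD16 receptor for IgG, lies 164.6 kb from Fcer1g and was hardly detected. Its reads numbered 0, 71 and 0 in control thymus, 1, 10 and 57 in cKO thymus, 3, 0 and 0 in control liver, and 126, 0 and 0 in cKO liver. A single library thus held most of the reads in each of the 4 groups, and the groups overlapped in every comparison. Fcgr3 resembles Fcgr2b in its extracellular part, and the sources used here do not say how reads shared by such genes were counted.

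Crtam (ENSMUSG00000032021; chromosome 9, 40969691 to 41004628, minus strand), a receptor for Cadm1 that activated T and natural killer cells express, was as scarce. It had 0, 0 and 5 reads in control thymus, 0, 23 and 1 in cKO thymus, 14, 18 and 0 in control liver, and 0, 0 and 57 in cKO liver. At these counts no difference between groups was detectable for Fcgr3 or Crtam.

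The receptor gene Fcrl6 rose in cKO cells from almost no reads. Fcrl6 (ENSMUSG00000070504; chromosome 1, 172596642 to 172602551, minus strand) lies 1.36 Mb from Fcer1g, in the cluster of Fc receptor and Fc receptor-like genes. Control thymus libraries 1 and 2 held 0 reads and library 3 held 19, a value of 23.9, while cKO thymus libraries stood at 103, 167 and 561. All 3 control liver libraries held 0 reads, and the cKO liver libraries stood at 472, 239 and 310.0, from 767, 36 and 360 reads. Every cKO library lay above every control library of its tissue.

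Over both tissues Fcrl6 rose by 7.11 ± 1.23 on the log2 scale (limma adjusted p = 0.0034), and in liver by 8.06 ± 1.74 (limma adjusted p = 0.039). With controls at 0 reads these estimates depend on the pseudocount. Set against that floor of 3 reads per library, the mean of Fcrl6 was at least 43.1-fold higher in cKO liver. The thymus estimate was 6.17 ± 1.74 (limma adjusted p = 0.12), and the liver and thymus effects differed by 1.88 ± 2.46 (limma adjusted p = 0.96). The rise over both tissues passed the test under all 21 alternatives run (adjusted p from 4.1e-07 to 0.042). In liver it was lost under 10 of 22: without any of the 6 liver libraries in turn (adjusted p from 0.12 to 0.18), without cKO thymus library 2 or 3 (0.054 each), without the 2 shallow libraries (0.32) and with edgeR (0.12). In thymus the call depended on 1 control library. Without control thymus library 3 it passed (limma adjusted p = 0.018), and with that library as the only control it was 3.10 (limma adjusted p = 0.73). The cKO groups of liver and thymus differed by 0.62 ± 1.74 (limma adjusted p = 0.99).

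**Figure D2:**
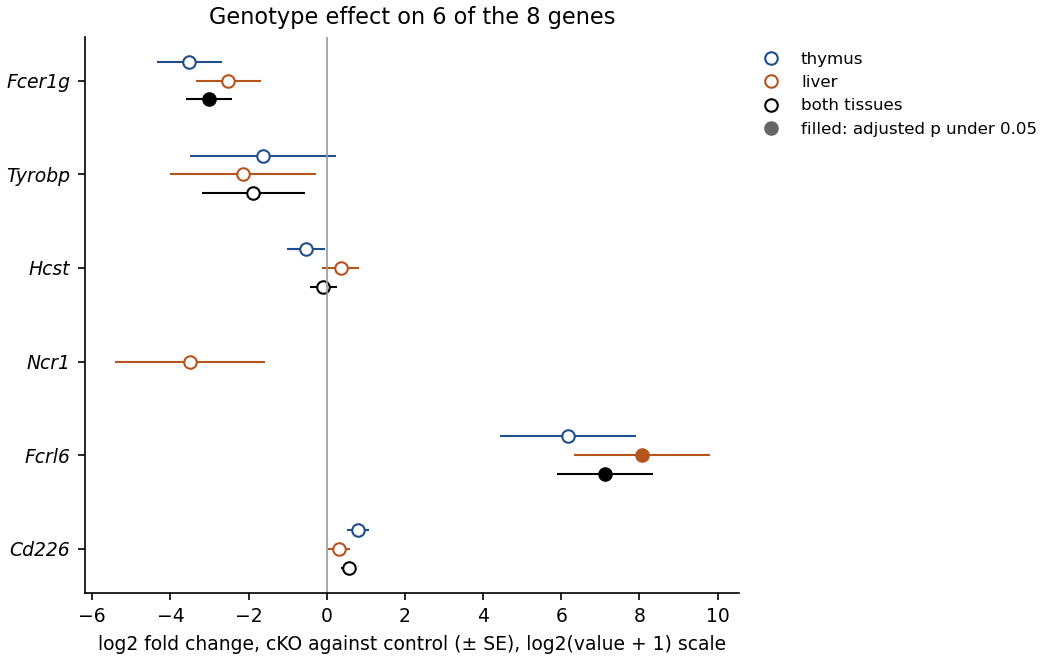
Log2 fold change of cKO against control (x axis, ± SE, log2(value + 1) scale), by tissue and over both, for 6 of the 8 genes; Fcgr3 and Crtam are left out for want of reads, and Ncr1 is shown for liver alone. Filled points passed an adjusted p of 0.05: Fcer1g over both tissues (-3.02), Fcrl6 over both tissues (7.11) and Fcrl6 in liver (8.06).

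Ets1 and its relatives bind DNA at a GGAA core, and the windows before the start sites of Fcer1g and Fcrl6 are given for that reason. They hold the 250 bases upstream of the start in RefSeq's GRCm38.p6 annotation, written along the gene's strand, with GGAA and its reverse complement TTCC in capitals.
Fcer1g, chr1:171234350-171234599, minus strand: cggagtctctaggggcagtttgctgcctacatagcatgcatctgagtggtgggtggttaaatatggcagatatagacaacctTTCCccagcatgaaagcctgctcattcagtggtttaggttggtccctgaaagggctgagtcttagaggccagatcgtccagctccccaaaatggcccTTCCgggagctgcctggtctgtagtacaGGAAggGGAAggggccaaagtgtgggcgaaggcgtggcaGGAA
Fcrl6, chr1:172602552-172602801, minus strand: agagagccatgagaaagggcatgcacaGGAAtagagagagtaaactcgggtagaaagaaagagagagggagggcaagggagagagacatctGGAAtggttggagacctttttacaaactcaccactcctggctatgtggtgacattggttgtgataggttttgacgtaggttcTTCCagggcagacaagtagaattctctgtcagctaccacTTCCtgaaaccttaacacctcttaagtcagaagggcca
The Fcer1g window held the core 5 times on both strands together, 4 of them in the last 100 bases, and the Fcrl6 window held it 4 times. RefSeq's start of Fcer1g differs from that of GENCODE, which places the gene up to 171234365. The end of its window, with the last GGAA, thus lies inside the gene as placed above. A core of 4 letters is common: 93.4% of the 32851 windows of this length in the table held at least 1. At least as many as Fcer1g were held by 18.03%, and at least as many as Fcrl6 by 33.4%. Hcst, which passed no test, also held 5, each Fcgr3 window held 3, and the Ncr1 windows held 0. The Fcgr3 windows lie inside the gene as placed above. The longer letters CCGGAAGT, in 2.88% of all windows on either strand, were in none of the members' windows. TGTGGT, the core bound by Runx factors, was in 14.0% of all windows, once in that of Fcrl6 and 2 times in those of Ncr1. These matches describe letters in a window and do not show that a factor bound there. No window is given here for Tyrobp, Cd226 and Crtam.

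Cd226 was the member with the highest value per exon length in 3 of the 4 groups. Cd226 (ENSMUSG00000034028; chromosome 18, 89176967 to 89272229, plus strand), an activating receptor for Pvr and Nectin2, stood at 9179, 3894 and 7038 in control thymus and at 9171, 14879 and 9896 in cKO thymus. Control liver libraries stood at 13845, 16033 and 14626, and cKO liver libraries at 21151, 17935 and 16351. The genotypes overlapped in the thymus, by nearly equal values of control library 1 and cKO library 1, and not in the liver. Estimates of cKO against control were 0.81 ± 0.28 for thymus (limma adjusted p = 0.22), 0.31 ± 0.28 for liver (limma adjusted p = 1) and 0.56 ± 0.20 over both (limma adjusted p = 0.19), and the difference of the effects was -0.50 ± 0.40 (limma adjusted p = 0.94). Under each alternative run, these 3 estimates kept their sign and none passed the threshold.

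Between tissues Cd226 was higher in the liver libraries, without passing the test. All 3 liver libraries lay above all 3 thymus libraries within each genotype, by 1.23 ± 0.28 on the log2 scale in control cells (limma adjusted p = 0.056) and by 0.73 ± 0.28 in cKO cells (limma adjusted p = 0.48). The control difference passed with a pseudocount of 10 (adjusted p = 0.046), with DESeq2 (0.025) and without control thymus library 1 (0.019) or library 3 (0.038), and its adjusted p was 0.32 at the highest. The estimate was 0.88 at its lowest, against a median gene that was 0.28 higher in control liver as deposited.

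The members called were Fcer1g and Fcrl6. As the 8 were chosen with earlier results of these data known, counts of members set beside shares of all genes describe the members and test nothing. Over both tissues 2 of the 8 members were called, Fcer1g lower and Fcrl6 higher, where 2.27% of all tested genes were called. There edgeR and DESeq2 each called 2 as well. In liver limma called 1 of 8, Fcrl6, where 0.505% of tested genes were called, edgeR called 0, and DESeq2 called 2, Fcrl6 and Fcer1g (DESeq2 adjusted p = 0.004 for Fcer1g). In thymus limma called 0 of 8, where 0.636% of tested genes were called; 3 members had an unadjusted p under 0.05, edgeR called 0 and DESeq2 called 2, Fcer1g and Fcrl6. For the difference of the genotype effects limma, edgeR and DESeq2 each called 0 of 8, and 0 had an unadjusted p under 0.05, where limma called 0.00766% of tested genes. For liver against thymus limma called 0 of 8 in control cells (0.605% of tested genes) and 0 of 8 in cKO cells (0.222%). At an unadjusted p under 0.05 these tissue counts were 3 and 2, edgeR called 0 and 0, and DESeq2 called 3 (Fcer1g, Ncr1 and Cd226) and 1 (Ncr1).

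Members whose libraries did not overlap between the genotypes numbered 3 of 8 in thymus, where 14.5% of all tested genes did not overlap, but 1 of the 3 was Ncr1, with 0 reads there in every library. They were 4 of 8 in liver (18.6% of tested genes): Fcer1g, Tyrobp, Fcrl6 and Cd226. Between tissues they were 3 of 8 in control cells (15.4% of tested genes) and 4 of 8 in cKO cells (16.1%), the last with Ncr1 again, at 0 and 1 reads in 2 of its liver libraries. Fcer1g and Fcrl6 made 2 of 8 with no overlap in both tissues and the same direction, where 3.52% of tested genes had this pattern. The members' median log2 fold change was 0.36 in thymus against 0.24 for all tested genes, and -0.19 in liver against 0.02. Neither kept its sign: over the alternatives it ran from -0.29 (DESeq2) to 0.45 (without cKO thymus library 1) in thymus, with -0.06 without cKO thymus library 2, and from -0.86 (without cKO liver library 3) to 0.35 (edgeR and DESeq2) in liver, with 0.14 without control liver library 2 and 0.16 without cKO liver library 2. The comparisons in each tissue share no libraries, while each comparison of tissues shares its libraries with those of the genotypes.

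Levels can be set against each other between genes only per length. Per kilobase of exon, control thymus cells held Fcer1g at 5445, above Hcst at 1909 and Cd226 at 1371. The lowest Fcer1g library, 3652, lay above the highest of Hcst, 2566, while Hcst and Cd226 overlapped. In cKO thymus the order was Cd226 at 2314, Hcst at 1307 and Fcer1g at 469, with no overlap between neighbours. In control liver it was Cd226 at 3033, Hcst at 1819 and Fcer1g at 1018, where the last ran from 216 to 2243 and overlapped Hcst. In cKO liver Cd226 stood at 3778, Hcst at 2364 and Fcer1g at 136, close to Fcrl6 at 127. These 2 genes overlapped there. Fcrl6 thus had rank 4 of 8 in both cKO groups, and rank 6 and 8 in control thymus and liver. Tyrobp stood at 127 and 36.5 per kilobase in control and cKO thymus and at 374 and 78.5 in control and cKO liver, and its highest library lay under the lowest of Hcst in each group.

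**Figure D3:**
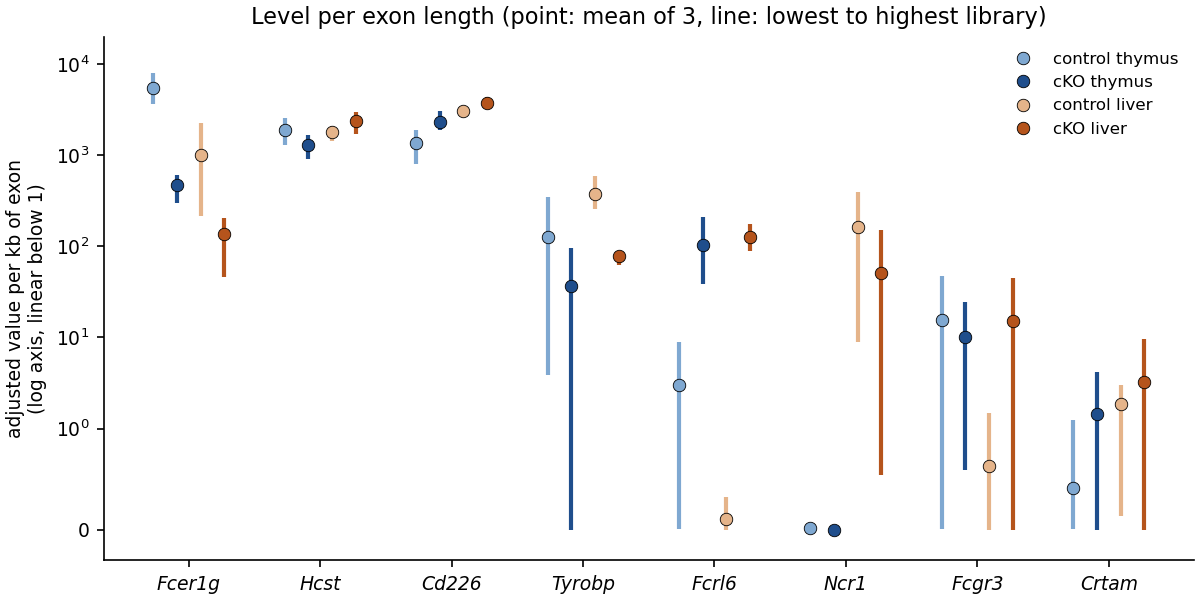
Adjusted value per kilobase of exon (log axis, linear below 1) of the 8 genes in the 4 groups, with the mean of 3 libraries as a point and the lowest to highest library as a line. Fcer1g is the first gene in control thymus at 5445 and stands at 136 in cKO liver, while the group means of Hcst and Cd226 lie between 1307 and 3778.

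Genes that pair with the adaptors were read from a list of 26 receptors, of which 9 were in the table and 7 could be tested. Over both tissues 1 rose and 2 fell, in liver 1 rose, and in thymus limma called 0, with 3 at an unadjusted p under 0.05, 0 called by edgeR and 2 by DESeq2 (Klrk1 and Treml2). Klrk1, which encodes NKG2D and signals through Hcst and Tyrobp, stood at 14029, 15445 and 11780.0 in control thymus and at 3404, 5497 and 5070.2 in cKO thymus. In liver it stood at 5394, 4639.6 and 2932 in control and at 2387, 1054 and 843 in cKO cells. The genotypes did not overlap in either tissue, and Klrk1 fell by 1.64 ± 0.27 on the log2 scale over both (limma adjusted p = 0.0024, and at most 0.024 under the alternatives). In single tissues it stood at the edge of the threshold, at -1.58 ± 0.38 in thymus (limma adjusted p = 0.064) and -1.70 ± 0.38 in liver (limma adjusted p = 0.05, just above the threshold before rounding), and these passed under 6 and 10 of 22 alternatives.

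The Ly49D gene Klra4, whose protein pairs with DAP12, moved the other way. It stood at 1038, 556 and 814 in control thymus and at 1824, 2389 and 1893 in cKO thymus, at 335, 146 and 92 in control liver and at 2301, 1632 and 2757 in cKO liver. It rose by 3.71 ± 0.58 in liver (limma adjusted p = 0.0032) and by 2.55 ± 0.41 over both tissues (limma adjusted p = 0.0022). The thymus estimate was 1.38 ± 0.58 (limma adjusted p = 0.31), and the tissues' effects differed by 2.34 ± 0.82 (limma adjusted p = 0.89). The liver call was lost without the 2 shallow libraries (limma adjusted p = 0.11). Ly49 genes are close copies, so the share of Klra4 among them is uncertain.

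Treml2, a relative of the TREM receptors that was kept in the list although its use of an adaptor is uncertain, stood at 501, 546 and 685 in control thymus and was left with 11, 0 and 6 reads in cKO thymus. In liver it had 0, 95 and 19 reads in control and 0 in all cKO libraries. Its fall over both tissues (-5.62 ± 1.36, limma adjusted p = 0.032) was lost under 9 of 21 alternatives (adjusted p up to 0.2): without cKO thymus library 2 or 3, control liver library 2 or 3, any cKO liver library, both shallow libraries, or control thymus libraries 1 and 2.

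Other partners differed between tissues. In control cells limma called 3 of the 7 lower in liver than in thymus. All 7 estimates were below 0, 6 of them had an unadjusted p under 0.05, edgeR called 2, and DESeq2 called 4, these 3 and Klra4. Klrd1, the CD94 chain, went from 17224, 13285 and 20458 to 4044, 2565 and 3447 (-2.34 ± 0.28, limma adjusted p = 0.00035), a call kept under all 22 alternatives. Klrc2, the activating NKG2C chain, went from 5622, 4490.0 and 2151 to 489.8, 780.1 and 619 (-2.61 ± 0.51, limma adjusted p = 0.019), and Klrk1 was -1.71 ± 0.38 (limma adjusted p = 0.046). Klrc2 lost its call under 8 of 22 alternatives and Klrk1 under 14, among them for both the removal of any control liver library or of control thymus library 1 or 2, and for Klrk1 that of any cKO thymus library or of cKO liver library 2. In cKO cells limma and edgeR each called 1 of the 7, Klrd1, and DESeq2 called 3, Klrd1, Klrk1 and Klrc2. Klrd1 was at -1.56 ± 0.28 (limma adjusted p = 0.024), and was not called without cKO thymus library 1 or 2, cKO liver library 2 or 3, or both shallow libraries (adjusted p from 0.097 to 0.2). Klrb1c, the NK1.1 receptor that uses FcRγ, was not called, at -0.09 ± 0.35 in thymus (limma adjusted p = 0.94) and 0.16 ± 0.35 in liver (limma adjusted p = 1). Klra8, the Ly49H receptor, was not called either, and ran from 1.69 (control liver library 2) to 1337 (cKO liver library 1).

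**Figure D4:**
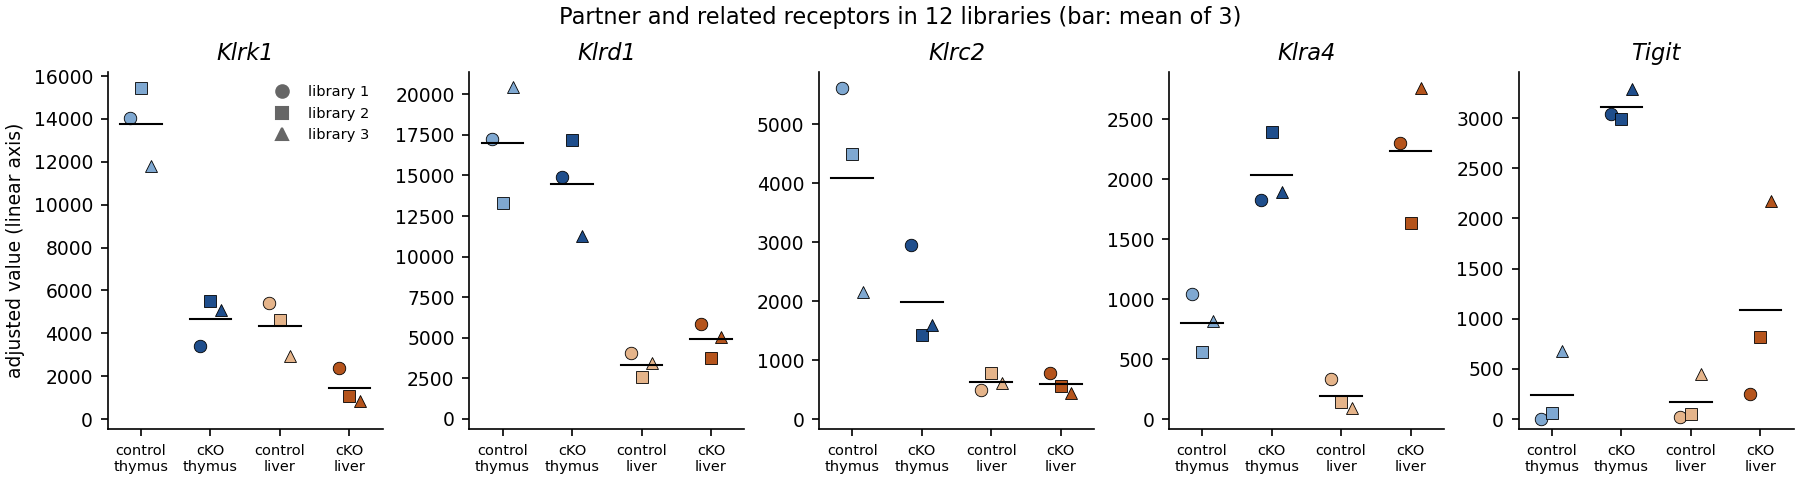
Adjusted values (linear axis) of Klrk1, Klrd1, Klrc2, Klra4 and Tigit in the 12 libraries, with a bar at the mean of 3. Klrk1 is lower and Klra4 higher in all cKO libraries of each tissue, Klrd1 and Klrc2 are lower in all liver than in all thymus libraries of a genotype, and Tigit reaches 2995 to 3292 in cKO thymus.

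Molecules that act after the receptors were read from a further list. Of 28 genes of ITAM and DAP10 signalling 26 could be tested, and limma called 0 of them in each of the 6 comparisons. Between the genotypes, an unadjusted p under 0.05 was reached by 3 for thymus, 3 for liver, 6 over both and 0 for the difference of effects, and between the tissues by 5 in control and 2 in cKO cells. EdgeR called 0 in all 6. DESeq2 called 1 for thymus (Vav2), 2 over both (Lat and Malt1), 2 between tissues in control cells (Vav2 and Rac2) and 0 in the other comparisons. The most abundant were Rac2, a GTPase that Vav proteins load, and Lcp2, the SLP-76 scaffold. Rac2 was at -0.05 ± 0.19 over both tissues (limma adjusted p = 0.94) and Lcp2 at 0.06 ± 0.17 (limma adjusted p = 0.93).

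The antigen receptor's own ITAM chains were abundant in all groups. Of 6 such genes 5 were tested and limma called 0 in each comparison, as did edgeR and DESeq2, with 1 at an unadjusted p under 0.05 over both tissues and 0 in the other comparisons. Cd3e was at -0.16 ± 0.18 over both tissues (limma adjusted p = 0.77) and Cd3g at 0.08 ± 0.18 (limma adjusted p = 0.9).

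Of 15 brakes on ITAM signalling, all tested, 1 fell over both tissues. Cbl, a ubiquitin ligase that targets Syk-family kinases and the chains they bind, stood at 10983, 5786 and 6077 in control thymus and at 4389, 2839.8 and 3248 in cKO thymus. In liver it stood at 8492, 7372 and 6365 in control and at 3681, 3432 and 3041 in cKO cells. The genotypes overlapped in neither tissue, and the estimate was -1.10 ± 0.22 (limma adjusted p = 0.01), a call lost only without the 2 shallow libraries (limma adjusted p = 0.066). The phosphatase gene Ptpn6 (SHP-1) and the adaptor gene Pag1, which anchors the kinase Csk, were lower in control liver than in control thymus, at -1.73 ± 0.33 (limma adjusted p = 0.015) and -1.79 ± 0.40 (limma adjusted p = 0.046). Ptpn6 lost that call under 7 of 22 alternatives and Pag1 under 16, among them for both the removal of control thymus library 1 or of any control liver library, and for Pag1 that of control thymus library 2, any cKO thymus library, or cKO liver library 2 or 3. Ptpn22 (0.21 ± 0.22, limma adjusted p = 0.73) and Sla (0.53 ± 0.17, limma adjusted p = 0.13), the most abundant of the others, were not called over both tissues.

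Cd226 shares its ligands with Tigit, an inhibitory receptor, and with Cd96. Of 11 nectin receptors and ligands 5 were in the table and tested, and Tigit rose over both tissues (4.86 ± 1.17, limma adjusted p = 0.032). It stood at 0.0213, 55.5 and 677 in control thymus, where library 1 held 0 reads, and at 3038, 2995 and 3292 in cKO thymus. In liver it stood at 25.2, 48.03 and 449 in control and at 251, 820.0 and 2178 in cKO cells. The groups overlapped in liver and not in thymus. The call was lost under 11 of 21 alternatives (adjusted p up to 0.13): with edgeR or DESeq2, without the shallow libraries, without control thymus libraries 1 and 2, and without any cKO thymus library, control liver library 1 or 2, or cKO liver library 2 or 3. Cd96 was at -0.14 ± 0.34 over both tissues (limma adjusted p = 0.91) and the ligand gene Pvr at -0.999 ± 0.31 (limma adjusted p = 0.11). DESeq2 called Pvr over both tissues and in both comparisons of tissues, where limma and edgeR did not.

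Other listed genes of Fc receptor-like proteins and of further Fc receptors were scarce. Of 7 listed, 3 were in the table and 2 were tested: Fcrl1, and Fcgrt, which is not of the Fc receptor-like family. Both had at most 362 reads in a library. Limma and edgeR called 0 of the 2 in each comparison, 0 had an unadjusted p under 0.05, and DESeq2 called Fcgrt in 3 comparisons.

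The genes closest to each member over the 12 libraries were found by Pearson's r of log2(value + 1), given as a description of points that share their library and its depth. Fcer1g was closest to Baz2b (r = 0.945), the lymphocyte adaptor gene Lax1 (0.940) and Klrk1 (0.927). Fcrl6 was closest to Pde8b (0.978), Lgi4 (0.969) and Ntrk3 (0.967), whose control and cKO means were 39.7 and 1112, 51.3 and 1495, and 11.3 and 133 in thymus. For Cd226, P2rx7 (0.935) and Papss1 (0.931) were among the closest, and both had their lowest means in control thymus. Tyrobp was closest to Ccl4 (0.932), Klrb1f (0.916) and Lsm4 (0.907), and Hcst to Mrpl21 (0.924), Vps16 (0.923) and Mrpl46 (0.851). The values for Ncr1 (Zfp108, 0.969; Dnah12, 0.937), Fcgr3 (Il6ra, 0.910; Set, 0.871; Pole4, 0.865) and Crtam (Tldc2, 0.887; Papss2, 0.883; Slc25a33, 0.861) rest on a few libraries with reads. Between members the highest r was 0.577 for Tyrobp with Ncr1, and Fcer1g and Tyrobp, the ITAM adaptors, had an r of -0.023.

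FcRγ and DAP12 are also made by myeloid and natural killer cells, so the markers of such cells are given beside these adaptors' values. Of 17 macrophage and monocyte markers 10 were in the table. In thymus they summed to 11.8 to 325 for control and 169 to 328 for cKO cells, and in liver to 37.6 to 1551 and 853 to 1160. These sums thus overlapped between the genotypes in both tissues, but single markers varied. Itgam was higher in all cKO liver libraries, at 402, 654 and 551 against 109, 0.832 and 13.2 in control liver. Cd68 reached 1346 reads in control liver library 1, and Lyz2 487 reads in cKO liver library 1. Spi1 had at most 1 read in any library, and Adgre1 had 0 reads outside cKO liver. Of 8 dendritic cell markers 3 were in the table. They summed to 159 to 893 for control and 2277 to 6210 for cKO cells of the thymus, where Itgax, an integrin that activated T and natural killer cells also express, made most of the cKO sum, and to 427 to 1762 and 1554 to 2846 in the liver, where the genotypes overlapped. Of 10 natural killer and innate lymphoid cell markers 6 were in the table. Their sums overlapped in the thymus (10067 to 21693 for control, 9448 to 10784 for cKO) and in the liver were lower in all cKO libraries (7545 to 13532 against 3205 to 4871). Much of the liver sum was Tnfsf10, which activated T cells also express, at 10296, 6372 and 5747 in control and 1929, 1114 and 2063 in cKO libraries, while Klra8 and Eomes overlapped between the genotypes there. In the thymus Klra9, Cd7 and Tnfsf10 were the largest of them. Klra9 was lower in all cKO thymus libraries, at 2138, 1533 and 1266 against 8606, 6857 and 3794 in control. Klri2 was lower there too, at 72.9, 208 and 118 against 847, 2081 and 399. Cd7, Tnfsf10, Klra8 and Eomes overlapped between the genotypes in the thymus, and Eomes had at most 92 reads in any thymus library. Of 8 mast cell and basophil markers 1, Cpa3, was in the table. It had 0 reads in control thymus, at most 74 in cKO thymus, 3 to 32 in control liver and 14 to 126 in cKO liver. A single marker cannot tell whether such cells were present. Immature thymocyte markers (6 of 8 in the table, Cd4 among them) were lower in all cKO libraries of each tissue, at 1922 to 7398 against 355 to 1306 in thymus and 6608 to 9078 against 598 to 1999 in liver. Cd4, which mature iNKT cells can also express, made most of the control sums (985 to 7393 against 91.4 to 734 in thymus, 6440.2 to 7921 against 234 to 1657 in liver), while Cd8a and Dntt did not separate the genotypes in either tissue. Pecam1, the 1 endothelial marker of 8 in the table, was also lower in all cKO libraries of each tissue, at 71.7 to 302 against 0.923 to 68.5 and 458 to 671 against 1.16 to 88.0. Mmp9, the 1 neutrophil marker of 12, stood at 3033 to 3585 in control liver and at most at 2.55 in the other groups. B cell markers (6 of 8) summed to at most 759, in control liver library 1, and hepatocyte markers (5 of 7) to 0 to 442 in thymus and 719 to 1709 in liver. The part of other cells in the fall of Fcer1g was not tested.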

How the data were processed

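RNA-seq was made from 12 libraries in 4 groups of 3. Per the submitters' processing notes, the tools were Trimmomatic 0.33, TopHat2 2.1.0, STAR, HTSeq 0.6.1 and DESeq2 with build mm10; their roles, and whether counting used strand, are not given in the sources used here. Per the labels' protocols, RNA came from RNeasy mini kits and libraries from Nugen Ovation Ultralow systems. The authors deposited 1 table of 14004 genes as an adjusted signal that is never negative and not whole. Whole reads passed through edgeR's negative binomial quantile adjustment (fitted dispersion 1.42) give such values, and undoing it left 95.3% of them less than 0.1 read from a whole number (78.3% in cKO liver library 1, the lowest share). This origin is inferred from the values and stated in no source. Reads gave depth, floors (3 reads per library) and the edgeR and DESeq2 alternatives.

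Symbols and positions came from GENCODE M21 on GRCm38 by Ensembl identifier (13363 matched, 95.4%), and promoter windows from RefSeq. Of the 14004 genes, 13058 reached 10 in 3 or more libraries. The test was that of limma 3.58.1 (R 4.3.3), two-sided, fitted to log2(value + 1) by 4 group means with a variance trend, without covariates, with 8 residual degrees of freedom and 10.7 from the prior. The Benjamini-Hochberg adjustment ran over all tested genes. Alternatives used edgeR 4.0.16 and DESeq2 1.42.0 on the recovered reads, TMM and median-of-ratios scaling, a pseudocount of 10, no filter, a replicate block, each group pair by itself, and fewer libraries. Scripts were tested on simulated data. Members and gene lists were chosen with earlier results of these data known. From each list, called genes and at most 2 more of the highest mean level are named, and beside each member the 3 genes of highest r, of which some are not reported here. Marker lists of other cell types were summed per library.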

Additional observations from a re-analysis of the deposited data

How the results depend on the processing

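Alternatives for Ets1 and for genes outside the 8 were chosen after seeing the data. Genes called in thymus (83) numbered 129 with a pseudocount of 10, 51 with edgeR, 619 with DESeq2, 22 without the 2 libraries under 5 M reads, 4 without control thymus libraries 1 and 2, and 0 in thymus libraries alone, where limma gave 952 genes an unadjusted p under 0.05; edgeR and DESeq2 were not run on them alone. Members called there (0) were 1 with a pseudocount of 10, TMM or median-of-ratios rescaling, and 2 with DESeq2. In liver the 66 genes went to 104, 39, 272, 7, 215 and 292 in the same order of alternatives, and the 1 member to 0 with edgeR, 2 with DESeq2 and 0 without the shallow libraries. Over both tissues the 297 genes went to 757 with DESeq2, 77 without the shallow libraries and 185 without control thymus libraries 1 and 2, which left 1 of 2 members. For the difference of effects the 1 gene went to 3 with a pseudocount of 10, 2 with TMM, 3 with edgeR and 112 with DESeq2. For liver against thymus in control cells the 79 genes went to 49 with edgeR, 478 with DESeq2, 18 without the shallow libraries, 29 without control thymus libraries 1 and 2, and 12 in control libraries alone, and the 0 members to 1 with a pseudocount of 10 and 3 with DESeq2. In cKO cells the 29 genes went to 54 with a pseudocount of 10, 18 with edgeR, 263 with DESeq2, 3 without the shallow libraries, 71 without control thymus libraries 1 and 2, and 57 in cKO libraries alone, and the 0 members to 1 with DESeq2.

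Leaving out each library in turn gave 21 to 541 genes in thymus, 21 to 126 in liver, 170 to 546 over both, 1 to 9 for the difference, 27 to 395 for the tissues in control and 3 to 44 in cKO cells. Members numbered 0 to 2, 0 to 1, 2 to 2, 0 to 0, 0 to 1 and 0 to 0. Signs turned for Fcer1g in the difference of effects (-0.23 without the shallow libraries) and for Tyrobp in thymus (1.25 without control thymus libraries 1 and 2). Ets1 lost its call in thymus without cKO thymus library 3 (limma adjusted p = 0.072), without control thymus libraries 1 and 2 (0.4) and in thymus alone (0.59), and in liver without the shallow libraries (0.059). The causes were not tested. DESeq2 gave no adjusted p for Tyrobp.

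Replicate numbers showed little sign of pairing: the deviations of same-numbered libraries from their group means correlated between -0.096 and 0.080. With a replicate block 81 genes were called in thymus, 71 in liver, 303 over both, 1 for the difference, 68 and 34 for the tissues, with 0, 1, 2, 0, 0 and 0 members. Among the other genes named, the block took the call of Pag1 and brought those of Klrk1 in liver and Tigit in thymus under the threshold.

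At 3.87 and 3.21 M reads, 3 reads in the shallow libraries are worth 18.2 and 19.99 units, so values under these are not resolved there, and no floor covers more than counting error.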
